A study of Mus musculus with 12 samples.

Results

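The genes described here are 31 listed mouse genes of cholesterol and fatty acid synthesis, from Hmgcs1 at the head of the mevalonate pathway to the desaturases Scd1, Scd2, Fads1 and Fads2. They were chosen by name, and each was followed through the array probes whose accession maps to it, with the brightest probe over all 12 arrays standing for the gene. A probe mapped to 30 of the 31 genes, Idi1 being the exception, and all 30 were well above background on all 12 arrays, among 14743 genes tested and 17178 genes with a mapped probe. They fall into 5 steps: 5 measured genes of the mevalonate pathway, 11 of squalene and sterol synthesis, 4 regulators and carriers, 5 of fatty acid supply and synthesis, and 5 of elongation and desaturation.

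Total RNA of cultured helper T cells was hybridised to one-colour Agilent whole-genome arrays; the mice were C57BL/6, 7 weeks old. Cells were stimulated through CD3 and CD28 for 65 hours, grown with IL-2 for 48 hours, electroporated on days 1 and 4, and harvested on day 5. The 4 groups, with 3 arrays each, were Dgcr8-deficient cells given miR-29b, Dgcr8-deficient cells given a control miRNA, wild-type cells given miR-29 inhibitors, and wild-type cells given control inhibitors. Mice were numbered 2, 3 and 4 within each genotype. The cells of each Dgcr8-deficient mouse were split between both treatments, per the series' design text. For wild-type cells, arrays of equal number were taken as the same mouse. Dgcr8 is the partner of Drosha that most microRNAs need for their first cut, so cells without it lack most of their own microRNAs. The allele and any Cre driver behind the deficiency are not given in the sources used here.

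Cells make cholesterol from acetyl-CoA through mevalonate, squalene and lanosterol, and make fatty acids from the same acetyl-CoA through malonyl-CoA. Both routes are driven by the SREBP transcription factors, encoded by Srebf1 and Srebf2, which the INSIG proteins hold in the endoplasmic reticulum when sterols are plentiful. Activated T cells are known to raise SREBP activity, since dividing cells need new membrane. An intron of Srebf2 also carries miR-33, a microRNA known to target the cholesterol exporter Abca1.

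The microRNA added to the Dgcr8-deficient cells belongs to a family of 3, whose mature 3p strands are shown because all share a seed. Sequences are those of RefSeq on GRCm38.p6, 5′ to 3′, with bases 2 to 8 (the seed) in capitals. The labels name miR-29b without an arm, and the sequence of the transfected oligonucleotide is not given in the sources used here. miR-29b is encoded at chr6:31063025-31063047 (minus strand) and at chr1:195037091-195037113 (plus strand), miR-29a at chr6:31062673-31062694 (minus strand) and miR-29c at chr1:195037600-195037621 (plus strand). miR-33-5p, from the Srebf2 intron at chr15:82198127-82198147 (plus strand), is added for its different seed.
miR-29b-3p: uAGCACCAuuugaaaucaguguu
miR-29a-3p: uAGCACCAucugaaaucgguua
miR-29c-3p: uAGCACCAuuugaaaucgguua
miR-33-5p: gUGCAUUGuaguugcauugca

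Levels below are log2 processed signals minus the 75th percentile of the array, and they are compared between samples, never between genes. Each change is a limma log2 fold change ± SE (n = 3 arrays a group), and adjusted p-values are Benjamini-Hochberg values over all genes tested. The level of Dgcr8 itself lay between -1.24 and -0.15 over the 6 deficient arrays, against between -0.16 and 1.0 over the 6 arrays of wild-type cells. Its change between controls, -1.06 ± 0.38, missed the threshold in limma (adjusted p = 0.0723) and passed it in the fit blocked by mouse (adjusted p = 0.0476). The miR-29b array of mouse 3 carried 1458 spots marked as outliers, which were left out, and the other arrays 68 to 193 each. All 12 CD4 T cell marker genes were well above background on every array. The arrays lay on 4 slides, and slide 3, the only slide of scan day 2, held Dgcr8-deficient mouse 4 and wild-type mouse 3. Because these are bulk samples, less RNA per cell and fewer cells of a type cannot be told apart.

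**Figure D1:**
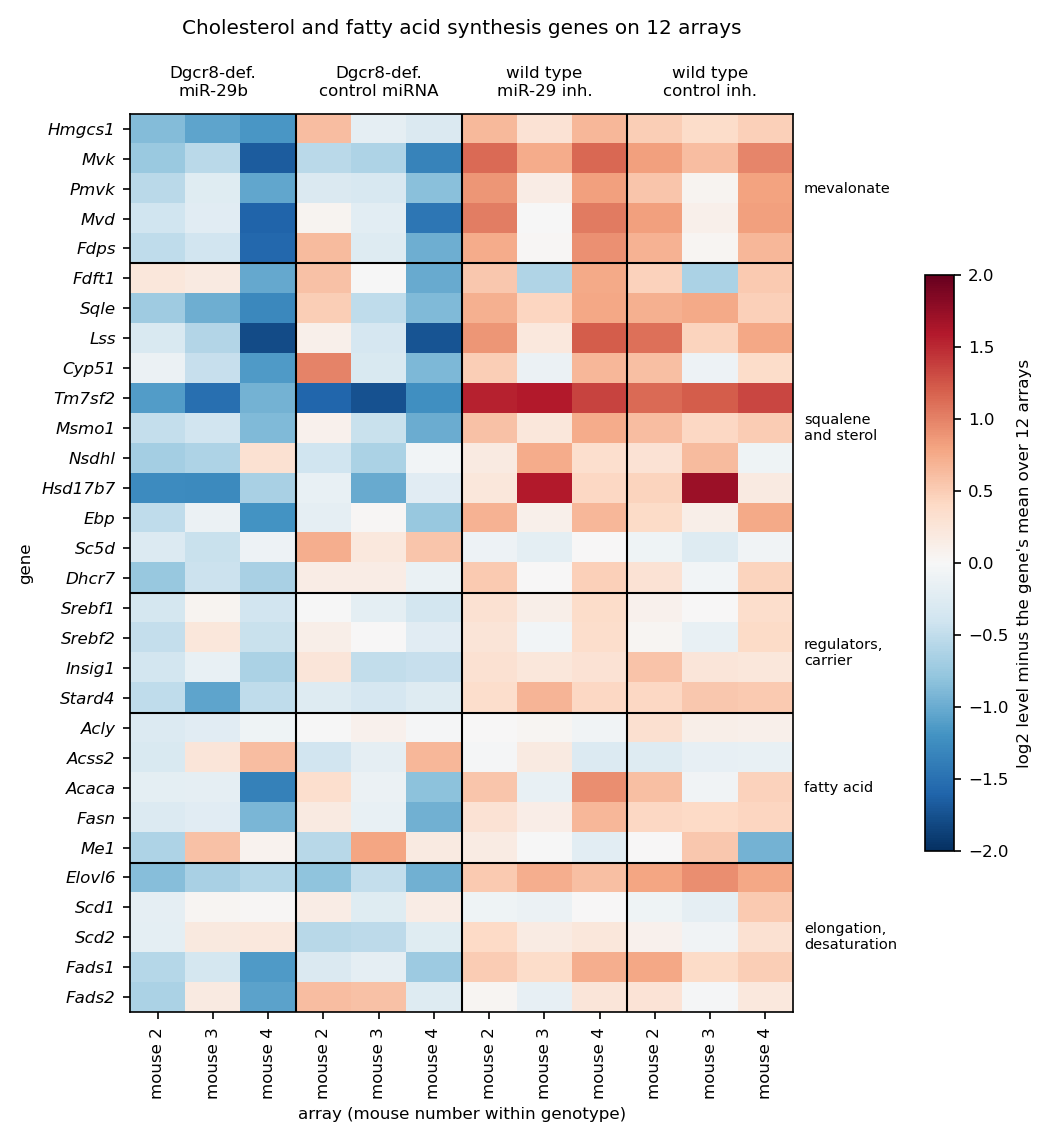
Heat map of 30 genes (rows, ordered by pathway step) on 12 arrays (columns, grouped by treatment and mouse), coloured by the log2 level minus the gene's mean over the 12 arrays, with colour limits at -2 and 2. The rows of Tm7sf2, Mvk and Elovl6 are blue on all Dgcr8-deficient arrays and red on all wild-type arrays, and Hmgcs1 is bluest on the 3 miR-29b arrays.

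In Dgcr8-deficient cells Hmgcs1, which makes HMG-CoA at the entry to the mevalonate pathway, was lower with miR-29b. Hmgcs1 had levels of 2.25, 2.05 and 1.94 with miR-29b in mice 2, 3 and 4, against 3.73, 2.93 and 2.82 with the control miRNA. All 3 miR-29b arrays lay below all 3 control arrays. The change was -1.08 ± 0.24, a 2.12-fold lower level, with a limma adjusted p of 0.0449, or 0.00679 blocked by mouse. Within mice 2, 3 and 4 it measured -1.48, -0.88 and -0.88, and the gene's second probe gave -1.26. This was the only gene of the 30 past the threshold, 1 lower and 0 higher, where 1.19% of all genes tested were called lower and 1.01% higher. The call rests on every array: with any of the 12 arrays left out the adjusted p rose to between 0.0504 and 0.131, while the change stayed between -1.25 and -0.80. It was also lost with the array median as the scale, with no filter and with only the compared arrays in the fit (adjusted p up to 0.341), and without slide 3 (-1.18, adjusted p = 0.121).

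With the mouse as a block, which uses the splitting of each mouse's cells, 5 of the 30 genes were lower and 1 was higher. Across all genes that fit called 9.4% lower and 13.1% higher. With slide as a block 4 of the 30 were lower and 0 higher (7.77% and 10.4% of all genes), and the same counts came with scan day (6.16% and 6.93%). The lower genes besides Hmgcs1 were Sc5d, Dhcr7, Sqle and Fads2, and the higher one was Scd2. Of these 6, 4 belong to mevalonate and sterol synthesis, which thus held 4 of the 5 lower calls among its 16 measured genes.

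Sc5d, a desaturase late in sterol synthesis, had levels of 2.37, 2.20 and 2.55 with miR-29b and 3.37, 2.86 and 3.19 with the control miRNA. The groups did not overlap. The change of -0.77 ± 0.17 missed the threshold in the fit without the block (limma adjusted p = 0.0536) and passed with it (0.00644). Dhcr7, which reduces the last precursor to cholesterol, had levels of 1.38, 1.71 and 1.48 with miR-29b and 2.28, 2.28 and 2.00 with the control miRNA. Its groups did not overlap either, and its second probe moved by -0.58 where the first moved by -0.66 ± 0.20 (limma adjusted p = 0.140, or 0.0107 with the block).

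Sqle, the squalene epoxidase that is known as a controlled step of sterol synthesis, had levels of 1.25, 0.99 and 0.68 with miR-29b and 2.46, 1.46 and 1.09 with the control miRNA. Its groups overlapped, since mouse 2 with miR-29b lay above mouse 4 with the control, although the level was lower with miR-29b in each mouse. The change was -0.70 ± 0.31, with a limma adjusted p of 0.343, or 0.0496 with the block. Sqle passed with no other block (adjusted p = 0.104 with slide and 0.134 with scan day). Without the control array of mouse 2 the change of Sqle was -0.30. Fads2, which opens polyunsaturated fatty acid desaturation, had levels of -1.58, -0.76 and -2.0 with miR-29b and -0.33, -0.36 and -1.20 with the control miRNA, again with overlapping groups. It changed by -0.82 ± 0.33 (limma adjusted p = 0.279, or 0.0203 with the block), and by -0.54 without the miR-29b array of mouse 4.

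Scd2, a stearoyl-CoA desaturase that makes monounsaturated fatty acids, moved the other way. Its levels were 4.53, 4.93 and 4.94 with miR-29b and 4.18, 4.20 and 4.49 with the control miRNA, without overlap, and the change of 0.51 ± 0.18 had a limma adjusted p of 0.206, or 0.0293 with the block. The mouse block was the only one of 11 other settings in which Scd2 passed (adjusted p = 0.0748 with slide and 0.0696 with scan day as a block), and with the array median as the scale its change was 0.31. Scd1, the related desaturase, changed by -0.06 ± 0.21.

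**Figure D2:**
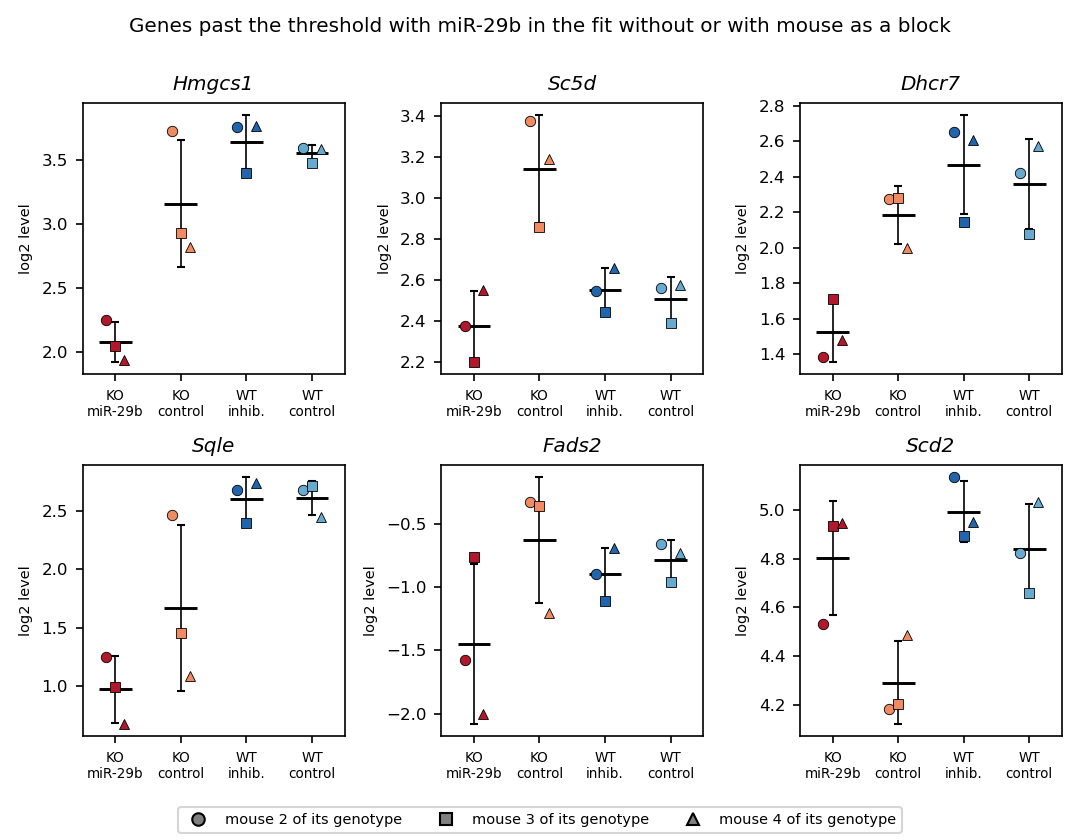
Levels (log2 signal minus the array's 75th percentile) of 6 genes in Dgcr8-deficient cells with miR-29b (KO miR-29b) or control miRNA (KO control) and in wild-type cells with miR-29 inhibitors (WT inhib.) or control inhibitors (WT control). Points are arrays, shaped by mouse number within the genotype, and bars give mean ± SD (n = 3); Hmgcs1, Sc5d and Dhcr7 are lower and Scd2 is higher on all miR-29b arrays than on all control miRNA arrays.

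Over all 30 genes the median change with miR-29b was -0.20, against 0.10 over all genes tested. Of the 30 changes 25 were negative, where 38.3% of all genes had a negative change. Within mice 2, 3 and 4 the median of the 30 was -0.38, -0.09 and -0.19. In all 3 mice 16 of the 30 genes were lower and 2 were higher with miR-29b, where 21.6% of all genes were lower and 38.5% higher in all 3 mice. The groups did not overlap for 5 lower genes (Hmgcs1, Sc5d, Dhcr7, Stard4 and Acly) and for 1 higher gene (Scd2), with 6.54% and 9.46% of all genes doing so in these directions. The median depends on the scaling: with the array median in place of the 75th percentile it was -0.40, while the median of all genes moved to -0.09, so that the offset from all genes stayed.

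By step, the median change with miR-29b was -0.21 for the mevalonate genes, -0.30 for squalene and sterol synthesis, -0.17 for regulators and carriers, -0.16 for fatty acid supply and synthesis, and -0.06 for elongation and desaturation. Of the mevalonate genes after Hmgcs1, Mvk, the mevalonate kinase, changed by -0.15 ± 0.31 and Pmvk, the kinase after it, by -0.13 ± 0.30. Fdps, which makes farnesyl diphosphate, had a change of -0.62 ± 0.45, and Mvd, the decarboxylase before it, -0.21 ± 0.49. In sterol synthesis Fdft1, the squalene synthase, changed by only -0.06 ± 0.54, and Hsd17b7, a sterol ketoreductase, by -0.60 ± 0.46. Tm7sf2, a sterol reductase, was the sterol gene with the most positive value (0.33 ± 0.19). Lss, Cyp51, Msmo1, Nsdhl and Ebp lay between -0.50 for Cyp51, the lanosterol demethylase, and 0.04 for Nsdhl. None of these genes passed the threshold in limma in either fit.

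The genes of the SREBP factors themselves showed no change past the threshold with miR-29b. Srebf1 had levels of 4.25, 4.66 and 4.21 with miR-29b and 4.59, 4.40 and 4.23 with the control miRNA, a change of -0.04 ± 0.18. Srebf2 had 2.32, 3.02 and 2.36 with miR-29b and 2.91, 2.80 and 2.57 with the control miRNA, a change of -0.19 ± 0.23. Their groups overlapped. Stard4, a cholesterol transfer protein, had levels of 0.66, 0.12 and 0.67 with miR-29b and 0.91, 0.84 and 0.90 with the control miRNA, without overlap. Its change of -0.40 ± 0.18 did not pass the threshold (limma adjusted p = 0.342, or 0.0633 blocked by mouse). Fasn, the synthase that builds palmitate, and Acaca, which makes its malonyl-CoA, had changes of -0.16 ± 0.30 and -0.37 ± 0.41. Their dimmer probes had the other sign, with 0.11 for Fasn and 0.20, 0.07 and 0.56 for Acaca. Acss2, which makes acetyl-CoA from acetate, had 0.16 ± 0.30, and Me1, the malic enzyme that supplies NADPH, -0.13 ± 0.44.

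In wild-type cells the miR-29 inhibitors moved no gene of the 30 past the threshold, and 0% of the 14743 genes tested were called in either direction. Before adjustment limma gave p under 0.05 for 0 of the 30 and for 61 of all genes, 47 higher and 14 lower. Blocked by mouse the counts were again 0 of the 30, and 511 of all genes. The median change of the 30 genes was 0.08, against 0.02 over all genes. Of the 30 changes 19 were positive and 11 negative, where 45.2% of all genes had a negative change. Single changes lay between -0.22 for Elovl6 and 0.26 for Tm7sf2, and their SEs between 0.14 for Acly and 0.54 for Fdft1. In all 3 mice 6 of the 30 were higher and 2 lower with the inhibitors, where 14.6% and 8.89% of all genes were.

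Hmgcs1 and Sc5d had small changes under the inhibitors. Hmgcs1 had 3.76, 3.40 and 3.76 with the inhibitors and 3.60, 3.48 and 3.58 with control inhibitors, a change of 0.09 ± 0.24. Sc5d had 2.55, 2.44 and 2.66 with the inhibitors and 2.56, 2.39 and 2.58 with control inhibitors, a change of 0.04 ± 0.17. In both genes the groups overlapped. The groups separated only for Tm7sf2, which had 1.77, 1.81 and 1.57 with the inhibitors and 1.36, 1.43 and 1.57 with control inhibitors, for Acly, the citrate lyase that supplies acetyl-CoA, and for Elovl6, the elongase of palmitate. Acly had 1.33, 1.35 and 1.25 with the inhibitors and 1.63, 1.43 and 1.42 with control inhibitors, and Elovl6 had 1.62, 1.83 and 1.70 against 1.88, 2.03 and 1.88. Such separation, 1 gene higher and 2 lower here, was seen for 1.64% and 1.15% of all genes.

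The effect of miR-29b minus that of the inhibitors was tested directly, as a difference of both changes. No gene of the 30 passed the threshold in limma, where 0.142% of all genes were called lower and 0.0136% higher. Before adjustment limma gave p under 0.05 for 3 of the 30, all lower, and for 1047 of the 14743 genes tested, 544 of them lower. In the fit blocked by mouse Hmgcs1 (-1.17, adjusted p = 0.0326), Sc5d (-0.81, adjusted p = 0.0326) and Dhcr7 (-0.77, adjusted p = 0.0400) passed, beside 3.49% of all genes lower and 2.56% higher. Slide as a block gave 2 lower and 0 higher (2.47% and 1.51% of all genes), and scan day 0 lower and 0 higher (1.57% and 0.753%). Without any block the limma adjusted p-values of Hmgcs1, Sc5d and Dhcr7 were 0.275, 0.330 and 0.507.

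**Figure D3:**
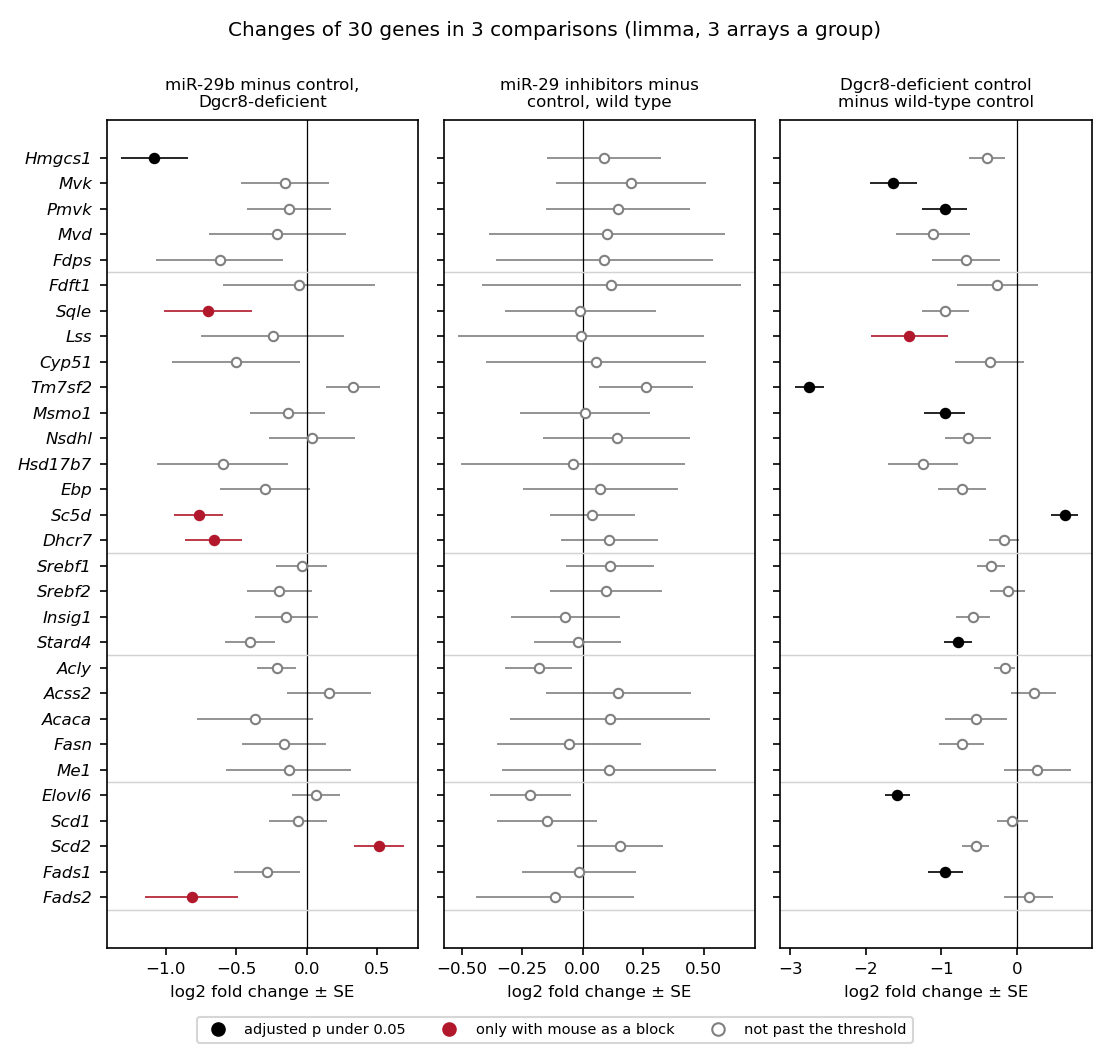
Log2 fold changes ± SE (limma, 3 arrays a group) of 30 genes in 3 comparisons, ordered by pathway step, with each panel on its own horizontal scale. Black points passed an adjusted p of 0.05, red points did so only with the mouse as a block; Hmgcs1 is the only black point with miR-29b, none passed with the inhibitors, and 7 genes lie to the left and Sc5d to the right in the comparison of the genotypes.

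Between the control groups of both genotypes, 7 of the 30 genes were lower and 1 was higher in Dgcr8-deficient cells, where 12.7% of all genes tested were lower and 9.22% higher. The lower genes were Tm7sf2, Elovl6, Mvk, Fads1, Stard4, Msmo1 and Pmvk, and the higher one was Sc5d. This comparison shares its Dgcr8-deficient controls with the miR-29b comparison and its wild-type controls with the inhibitor comparison. It also sets a control miRNA against control inhibitors, so that genotype and the kind of control oligonucleotide cannot be told apart.

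Tm7sf2 differed most. Its levels were -1.36, -1.51 and -1.0 in Dgcr8-deficient controls and 1.36, 1.43 and 1.57 in wild-type controls, and the genotypes did not overlap. The change of -2.75 ± 0.19 is a 6.71-fold lower level (limma adjusted p = 1.32e-05). With miR-29b the levels of Tm7sf2 in Dgcr8-deficient cells were -0.89, -1.28 and -0.72, still below all 6 wild-type arrays.

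Elovl6, which elongates palmitate, had levels of 0.29, 0.62 and 0.13 in Dgcr8-deficient controls and 1.88, 2.03 and 1.88 in wild-type controls. The change was -1.58 ± 0.17 (limma adjusted p = 1.40e-04), a 3.00-fold lower level without overlap. Mvk, the mevalonate kinase, had levels of -0.92, -0.99 and -1.71 in Dgcr8-deficient controls and 0.45, 0.24 and 0.60 in wild-type controls, and changed by -1.63 ± 0.31 (limma adjusted p = 0.00384). Its second probe gave -1.45. Pmvk, which acts on the product of Mvk, had levels of 2.48, 2.45 and 1.93 in Dgcr8-deficient controls and 3.32, 2.83 and 3.57 in wild-type controls, a change of -0.95 ± 0.30 (limma adjusted p = 0.0438). For both kinases every Dgcr8-deficient control lay below every wild-type control.

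Stard4 had levels of 0.91, 0.84 and 0.90 in Dgcr8-deficient controls and 1.58, 1.71 and 1.70 in wild-type controls. Its change of -0.78 ± 0.18 (limma adjusted p = 0.0107) was the smallest of its 3 probes, the others giving -1.65 and -1.82. Fads1, a desaturase of polyunsaturated fatty acids, had levels of -0.40, -0.30 and -0.85 in Dgcr8-deficient controls and 0.66, 0.26 and 0.37 in wild-type controls, a change of -0.95 ± 0.24 (limma adjusted p = 0.0162). Msmo1, a methylsterol oxidase, had levels of 2.30, 1.77 and 1.23 in Dgcr8-deficient controls and 2.83, 2.62 and 2.72 in wild-type controls. Its change of -0.96 ± 0.27 passed in limma (adjusted p = 0.0272) but not with the mouse as a random block (0.0509), and that fit also called 7 genes lower and 1 higher (11.7% and 8.57% of all genes). Lss, the lanosterol synthase, took its place there (-1.42, adjusted p = 0.0453), with levels of 0.22, -0.22 and -1.61 in Dgcr8-deficient controls and 1.22, 0.56 and 0.88 in wild-type controls.

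Sc5d had a change of the opposite sign. Its levels of 3.37, 2.86 and 3.19 in Dgcr8-deficient controls stood above 2.56, 2.39 and 2.58 in wild-type controls, a change of 0.63 ± 0.17 (limma adjusted p = 0.0258). The levels of 2.37, 2.20 and 2.55 with miR-29b overlapped those of the wild-type controls. Hmgcs1 did not follow that order: its levels with miR-29b lay below all 9 other arrays, and its change between the controls was -0.39 ± 0.24 (limma adjusted p = 0.293). The second probe of Hmgcs1 gave -0.86 between the controls.

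**Figure D4:**
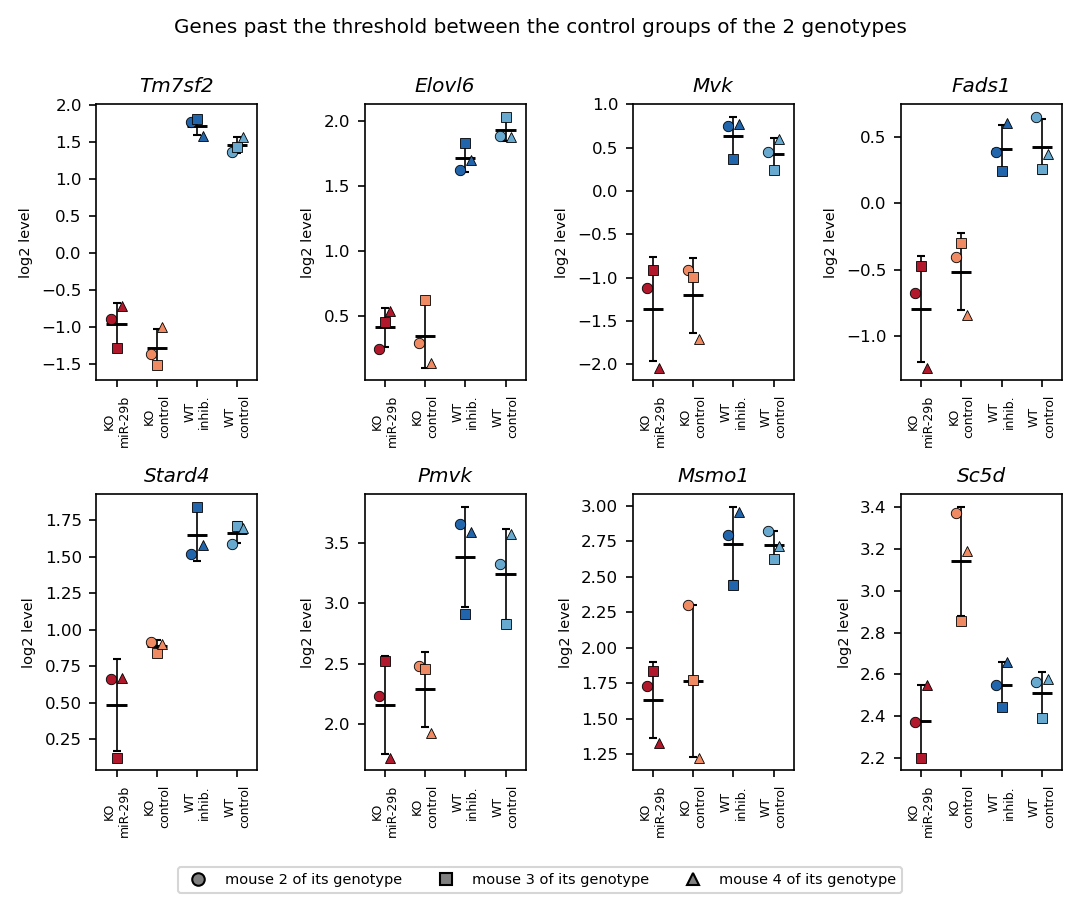
Levels (log2 signal minus the array's 75th percentile) of the 8 genes past the threshold between the control groups, in Dgcr8-deficient (KO) cells with miR-29b or control miRNA and in wild-type (WT) cells with miR-29 inhibitors (inhib.) or control inhibitors. Points are arrays, shaped by mouse number within the genotype, and bars give mean ± SD (n = 3); in the first 7 panels both Dgcr8-deficient groups lie below both wild-type groups, and Sc5d is highest in Dgcr8-deficient cells with control miRNA.

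The median change of the 30 genes between the controls was -0.61, against -0.08 over all genes. Of the 30 changes 26 were negative, where 56.0% of all genes had a negative change. The step medians were -0.95 for mevalonate, -0.72 for squalene and sterol synthesis, -0.46 for regulators and carriers, -0.16 for fatty acid supply and synthesis and -0.55 for elongation and desaturation. For 15 genes every Dgcr8-deficient control lay below every wild-type control, and for 1 above, where 21.9% and 14.9% of all genes did so. Over all 6 Dgcr8-deficient arrays against all 6 wild-type arrays, 10 genes were lower without overlap and 0 higher, beside 13.3% and 9.71% of all genes. Those 10 were the 7 lower genes above with Lss, Hsd17b7 and Ebp, the sterol isomerase. Fasn (-0.73 ± 0.30), Srebf1 (-0.34 ± 0.18) and Srebf2 (-0.12 ± 0.23) did not pass the threshold in limma. In fatty acid supply and desaturation Acaca had a change of -0.54 ± 0.41, Acly of -0.16 ± 0.14, Acss2 of 0.22 ± 0.30, Me1 of 0.27 ± 0.44, Scd1 of -0.06 ± 0.21, Scd2 of -0.55 ± 0.18 and Fads2 of 0.15 ± 0.33, and none passed.

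Slides 1 and 3 each held both genotypes, so the genotypes could be compared within a slide with 1 control array each. The median of the 30 changes was -0.32 on slide 1 and -0.77 on slide 3. Tm7sf2 was -2.72 on slide 1 and -2.44 on slide 3, Elovl6 -1.60 and -1.90, Mvk -1.36 and -1.95, Fads1 -1.06 and -1.10, Stard4 -0.67 and -0.81, Pmvk -0.84 and -0.90, and Sc5d 0.81 and 0.80. Msmo1 varied more, with -0.52 on slide 1 and -1.40 on slide 3. With slide as a block 14 genes were lower and 1 higher (26.6% and 16.2% of all genes), and with scan day as a block 18 were lower and 1 higher (24.1% and 15.5%). Without slide 3, 9 were lower and 0 higher (13.7% and 9.1%). Sc5d then had a change of 0.55 that did not pass in limma (adjusted p = 0.110), and Msmo1 one of -0.74 (adjusted p = 0.0541).

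Tm7sf2, Elovl6, Mvk and Stard4 stayed past the threshold whichever of the 12 arrays was left out. Stard4 was lost in limma with the array median as the scale (adjusted p = 0.0641) and without wild-type mouse 4 (adjusted p = 0.0673). Fads1 stayed in 10 of the 12 fits without 1 array, Msmo1 and Sc5d in 7, and Pmvk in 4. Some of these fits drop an array outside this comparison, and Msmo1 and Sc5d were lost only without a control array. In the 7 fits without a mouse or without slide 3, Fads1 stayed in 5, Pmvk in 2, and Msmo1 and Sc5d in 1 each. Lss, which did not pass without the block (limma adjusted p = 0.0723), passed in 2 of the 12 fits without 1 array. Its change was -0.89 without the control array of Dgcr8-deficient mouse 4.

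B cell markers moved with the genotype, 5 of 6 being higher in Dgcr8-deficient controls with a median change of 3.00. Their summed linear level was 4.42 to 9.57 in Dgcr8-deficient controls and 0.384 to 0.518 in wild-type controls, relative to the array's 75th percentile. The sum over 12 CD4 T cell markers was 476 to 486 in Dgcr8-deficient controls and 544 to 675 in wild-type controls, with 2 of the 12 lower and 1 higher. No listed B cell marker differed past the threshold with miR-29b, where their sum was 5.53 to 10.7. The CD4 T cell sum was 609 to 688 with miR-29b, above its range of 476 to 486 with the control miRNA. Among 5 adipocyte markers 1, Adipoq, was higher with miR-29b, and the summed level of the 5 was 0.0761 to 0.135 with miR-29b and 0.0656 to 0.0970 with the control miRNA. Adipoq was also lower in Dgcr8-deficient controls than in wild-type controls, as was 1 of 4 myeloid markers tested. It was well above background on only 9 of the 12 arrays, with levels of -7.97, -8.89 and -8.27 in Dgcr8-deficient controls. The part of these differences in the results for the lipid genes was not tested.

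The 30 genes also varied together between arrays of the same group. Each array's median deviation from the genes' 12-array means was -0.49, -0.30 and -0.90 in Dgcr8-deficient mice 2, 3 and 4 with miR-29b, and 0.07, -0.22 and -0.60 with the control miRNA. In wild-type mice 2, 3 and 4 it was 0.50, 0.14 and 0.63 with the inhibitors and 0.45, 0.12 and 0.47 with control inhibitors. The lowest array of each group was on slide 3. There 19 of the 30 genes were lower than on the other slides in both genotypes, a count whose share over all genes was not computed. Fdft1 showed the lower level most plainly, with 0.64, 0.65, 1.06 and 1.02 on the 4 arrays of slide 3 and 1.65 to 2.42 on the other 8. It was the only one of the 30 whose 4 slide 3 arrays lay below all others, which 8.65% of all genes did. Hsd17b7 and Nsdhl, a sterol dehydrogenase, ran the other way, with differences of slide 3 from the other slides of 0.49 and 0.70 in Dgcr8-deficient cells and 1.33 and 0.51 in wild-type cells. Mouse, slide and scan day cannot be told apart here.

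**Figure D5:**
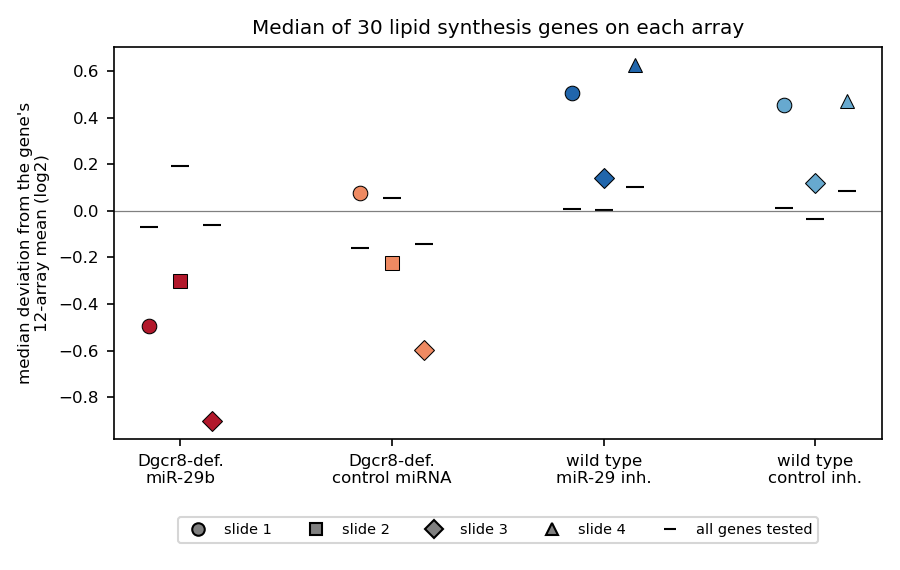
Median deviation of 30 genes from their 12-array means (log2) on each array, by group and, within a group, by mouse number (left to right 2, 3, 4), with marker shape giving the slide and short bars the median over all genes tested. All 6 Dgcr8-deficient arrays lie below all 6 wild-type arrays, and the lowest array of every group is on slide 3.

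RefSeq promoter windows on GRCm38.p6, from 250 bases before to 50 after a start, were at hand for 23 of the 30 measured genes, in 29 windows. They were searched on both strands for 3 motifs: TCACNCCAC, a form of the sterol regulatory element that SREBPs bind; CACGTG, the E-box that SREBPs can also bind; and CCAAT, the box of NF-Y, a known partner of SREBPs. No motif contains another. TCACNCCAC was found in 1 window of the 29, that of Hmgcs1, and in 1.24% of all 32851 windows. CACGTG was found in 4 windows (Hsd17b7, Sc5d, Dhcr7 and Insig1), 13.8% of the 29 against 7.15% of all windows. CCAAT was found in 21 windows of 20 genes, 72.4% of the 29 against 37.4% of all windows. A match is a description of the sequence, not a binding site.

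The promoters of 4 of these genes are shown, 5′ to 3′ on the gene's strand, with every match to the 3 motifs, on either strand, in capitals (ATTGG is CCAAT on the other strand). Hmgcs1, Sc5d and Dhcr7 are those of the 5 genes called lower with miR-29b in the fit blocked by mouse whose groups did not overlap, and Tm7sf2 has the largest difference between genotypes. The Fads2 window held no match, and none was at hand for Sqle. In Hmgcs1 the match to TCACNCCAC starts 137 bases before the start site, and the window also holds 4 CCAAT boxes. Sc5d carries an E-box 98 bases before its start and a CCAAT box at 24. The Dhcr7 window with most matches, shown here, has CCAAT boxes at 85 and 49, and the E-box of Dhcr7 lies in another of its windows. Tm7sf2 has a single CCAAT box at 47.
Hmgcs1 (chr13:119690101-119690400, plus strand): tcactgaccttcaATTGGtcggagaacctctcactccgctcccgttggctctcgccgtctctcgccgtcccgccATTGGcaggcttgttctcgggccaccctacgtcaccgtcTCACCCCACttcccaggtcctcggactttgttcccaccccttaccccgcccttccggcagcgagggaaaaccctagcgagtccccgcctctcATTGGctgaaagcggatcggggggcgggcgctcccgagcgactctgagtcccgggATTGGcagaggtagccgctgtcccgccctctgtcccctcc
Sc5d (chr9:42264251-42264550, minus strand): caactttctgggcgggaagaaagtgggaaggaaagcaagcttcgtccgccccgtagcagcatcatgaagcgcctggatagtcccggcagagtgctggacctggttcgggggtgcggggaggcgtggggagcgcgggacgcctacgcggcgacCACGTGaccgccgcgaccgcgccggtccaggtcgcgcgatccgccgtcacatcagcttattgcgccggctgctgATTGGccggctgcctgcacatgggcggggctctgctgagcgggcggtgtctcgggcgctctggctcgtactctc
Dhcr7 (chr7:143829964-143830263, plus strand): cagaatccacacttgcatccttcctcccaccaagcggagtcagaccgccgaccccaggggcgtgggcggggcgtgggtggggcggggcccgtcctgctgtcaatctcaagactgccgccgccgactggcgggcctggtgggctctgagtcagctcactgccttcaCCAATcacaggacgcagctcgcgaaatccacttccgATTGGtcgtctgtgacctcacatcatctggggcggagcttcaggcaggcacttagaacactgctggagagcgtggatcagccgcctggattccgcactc
Tm7sf2 (chr19:6067801-6068100, minus strand): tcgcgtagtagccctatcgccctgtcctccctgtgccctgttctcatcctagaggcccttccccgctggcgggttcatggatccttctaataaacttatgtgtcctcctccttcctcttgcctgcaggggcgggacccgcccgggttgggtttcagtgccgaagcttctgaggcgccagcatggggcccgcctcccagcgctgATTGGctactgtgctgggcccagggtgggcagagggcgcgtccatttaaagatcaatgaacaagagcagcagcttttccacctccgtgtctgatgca

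A list of 38 further genes of sterol synthesis, SREBP processing, sterol uptake, other lipid synthesis and cholesterol efflux, of which 37 were tested, gives the surroundings of the 30. With miR-29b 1 of the 37 was lower and 0 higher, with a median of 0.05, where 1.19% and 1.01% of all genes were called. Blocked by mouse 1 was lower and 5 were higher, beside 9.4% and 13.1% of all genes. Mcat had a change of 0.65 ± 0.18 and Npc2 of 0.62 ± 0.18 with miR-29b, neither past the threshold in limma without the block (adjusted p = 0.100 and 0.126). The inhibitors moved 0 of the 37. Between the controls 5 of the 37 were lower and 7 higher, with a median of -0.03, where 12.7% of all genes were lower and 9.22% higher.

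Among the 11 genes of SREBP processing and uptake 4 were higher in Dgcr8-deficient controls and 0 lower, where 9.22% of all genes were higher and 12.7% lower. Insig2, which holds SREBPs back as Insig1 does, was among them. It had levels of 1.15, 1.34 and 1.24 in Dgcr8-deficient controls and 0.73, 0.74 and 0.68 in wild-type controls, a change of 0.53 ± 0.13 (limma adjusted p = 0.0165). Insig1 had a change of the other sign, -0.58 ± 0.23, that did not pass (limma adjusted p = 0.0945). The other 3 were Pgrmc1 (1.24 ± 0.25), Npc2 (0.92 ± 0.18), which carries cholesterol out of lysosomes, and Rnf139 (0.79 ± 0.14), a ubiquitin ligase of the sterol response.

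Of 7 genes of the LXR response and of efflux, 2 were higher and 1 lower in Dgcr8-deficient controls, beside the same 9.22% and 12.7% of all genes. Abca1, the cholesterol exporter, had levels of -2.77, -2.24 and -1.92 in Dgcr8-deficient controls and -4.28, -4.40 and -3.35 in wild-type controls, a change of 1.70 ± 0.39 (limma adjusted p = 0.0110) that was 0.83 with slide as a block (adjusted p = 0.103). Mylip, which sends lipoprotein receptors to degradation, had levels of 1.65, 1.73 and 2.71 in Dgcr8-deficient controls and -0.04, 0.30 and 0.80 in wild-type controls, a change of 1.68 ± 0.41 (limma adjusted p = 0.0154). In neither gene did the groups overlap. Soat1, which esterifies cholesterol for storage, was lower, with 1.88, 2.44 and 1.71 in Dgcr8-deficient controls and 2.87, 2.57 and 3.27 in wild-type controls (-0.89 ± 0.28, limma adjusted p = 0.0417).

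Among 14 genes of other lipid synthesis 4 were lower and 1 higher in Dgcr8-deficient controls, beside 12.7% and 9.22% of all genes. Mcat, of mitochondrial fatty acid synthesis, changed by -0.91 ± 0.18, and Mid1ip1, an activator of acetyl-CoA carboxylase, by -0.91 ± 0.24. Gpam, the first acyltransferase of glycerolipid synthesis, had -0.96 ± 0.29, which did not pass in the fit blocked by mouse (adjusted p = 0.0934), and Lpin1, which makes diacylglycerol, rose by 1.22 ± 0.25. The fourth lower gene, Pnpla3, had levels of -8.79, -8.67 and -9.22 in Dgcr8-deficient controls and -5.14, -6.69 and -6.29 in wild-type controls. With the normexp background its change was -0.62, which did not pass the threshold in limma (adjusted p = 0.289).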

How the data were processed

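The data were 12 Agilent arrays of Cy3-labelled cRNA, 3 in each of 4 groups. The deposited scanner files hold spot intensity in arbitrary units, extracted with Agilent Feature Extraction 10.5.1.1 per the file headers. A log2 value table from the authors, made with limma per the submitters' processing notes (no version given), was an alternative. Here the processed signal was taken to log2, outlier spots were left out, the array's 75th percentile was subtracted, and spots of a probe were averaged. Accessions were matched to RefSeq genes (24844 of 41174 probes), the brightest probe stood for a gene, and genes well above background on at least 3 of 12 arrays were kept. Arrays had 27377 to 32218 probes well above background, 0 spots were saturated, and the number of arrays limits the precision.

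The test was limma (version 3.58.1, R version 4.3.3), with all arrays in a fit of 4 groups, at an adjusted p of 0.05. It was checked on simulated data whose arrays were independent, so the check does not cover the correlation of a mouse's arrays. Figures were drawn with matplotlib 3.10.9. Without a block the p-values treat all arrays as independent, although the arrays of a mouse were correlated. With the mouse as a fixed block they measure the spread of the treatment differences within mice. The series' design text says that cells of each Dgcr8-deficient mouse were split. For the wild type, arrays of equal number were taken as the same mouse. Residuals of a mouse's arrays correlated at 0.651, 0.611 and 0.753 in Dgcr8-deficient cells and 0.438, 0.725 and 0.409 in the wild type. Equal numbers across genotypes correlated at 0.271, -0.280 and -0.349 and were not paired. Both arrays of a mouse share a slide. The mouse was a fixed block within genotypes and a random block between them. The normexp background (offset 50) used the median spot signal, since the files hold no mean signal. Values on every array are given for members with an adjusted p under 0.05 in the fit without or with the mouse block and for the 3 smallest p of a comparison. Further pathway genes are named where past the threshold or among the 3 smallest p with miR-29b, and 1 of them is counted but not reported here. The members, gene lists and added alternatives were chosen with earlier results of these data known. Alternatives were normalizations, filters, probe choice, arrays fitted, blocks, and leaving out each array, each mouse or slide 3 (the last 2 added after seeing the data).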

Additional observations from a re-analysis of the deposited data

How the results depend on the processing

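No change past the threshold switched sign under an alternative that was run for it, but the inhibitor median, which has no test, and small changes that did not pass did. Me1 (0.27) became -0.28 between the genotypes with slide as a block and -0.31 with normexp, Acss2 (0.22) -0.08 without slide 3, and with slide as a block Fads2 (0.15) became -0.02 and Scd1 (-0.06) 0.11. With miR-29b and normexp, Me1 (-0.13) became 0.07, Scd1 (-0.06) 0.06 and Nsdhl (0.04) -0.02. With miR-29b the count of 1 gene of the 30 became 0 with the array median, with no filter, with the compared arrays only, without slide 3, and in every fit without 1 array (0 to 0) or 1 mouse (0 to 0). It was 2 with the filter on all 12 arrays, 3 in the authors' values, 4 with slide or scan day as a block and 6 with the mouse as the replicate block. Hmgcs1 kept its sign throughout. Over all genes, 324 passed with miR-29b, against 194 with the array median, 568 in the authors' values, 0 with the compared arrays only, 3314 with the mouse as the replicate block, 2680 with slide and 1929 with scan day as a block, 0 without slide 3, 86 to 286 without 1 array and 0 to 216 without 1 mouse. The median of the 30 genes was -0.40 with the array median, -0.43 to -0.042 without 1 array and -0.26 to -0.14 without 1 mouse.

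Between the genotypes 8 of the 30 passed, against 4 with the array median, 5 with the compared arrays only, 15 with slide and 19 with scan day as a block, 4 to 10 without 1 array and 3 to 10 without 1 mouse; the count of 4 came without the control array of Dgcr8-deficient mouse 4 or of wild-type mouse 2, and that of 3 without wild-type mouse 4. Over all genes 3225 passed, against 6313 with slide and 5846 with scan day as a block, 2324 to 3389 without 1 array and 1872 to 3011 without 1 mouse. The median was -0.80 to -0.44 without 1 array. With the mouse as the replicate block Lss joined and Msmo1 left, and the count stayed at 8.

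For the difference of both treatment effects 23 genes passed in all, against 39 with quantile normalization, 9 with the array median, 91 in the authors' values, 12 with no filter, 55 with the filter on all 12 arrays, 5 with the mean of probes, 892 with the mouse as the replicate block, 587 with slide, 343 with scan day, 3 to 46 without 1 array, 0 to 15 without 1 mouse and 0 without slide 3. Of the 30 genes 3 passed with the mouse and 2 with slide as a block, and their median was -0.46 with the array median and -0.44 to -0.080 without 1 array. For the inhibitors every count was 0 in every fit run, and the median was -0.050 to 0.17 without 1 array and 0.02 to 0.11 without 1 mouse. The cause of these shifts was not tested.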
